A study of Mus musculus with 22 samples.

Results

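The 10 genes described here encode RNA-binding proteins, and partners of them, that set when and how strongly stored mRNAs are translated in male germ cells: Dazl, Boll, Ybx2, Tarbp2, Pabpc1, Pabpc2, Paip2, Paip2b, Celf1 and Cpeb1. They were taken by symbol from the gene count table of the testis RNA-seq experiment, where all 10 have a row among 17931 gene symbols. The experiment asked how loss of MLX, a nutrient-sensing basic helix-loop-helix leucine zipper transcription factor of the extended MYC network, changes the testis transcriptome. RNA was made from whole testes of 3 WT and 3 MLXKO mice, all aged 7 months. The MLXKO mice carried a constitutive, whole-body Mlx deletion that removes the exons encoding the DNA-binding and dimerization region, made by gene targeting in 129S4 embryonic stem cells. Chimeras were bred with Meox2-Cre deleter mice and the Cre allele was then bred out, in lines from 2 stem cell clones; which line gave these testes is not given in the sources used here. The WT mice carried no deletion, had been verified as fertile breeders and were age-matched littermates. No group received a treatment. Because the tissue is whole testis and the deletion is in every cell, a change in an mRNA is a change over all testicular cells together, and fewer cells of a type cannot be told apart from less RNA per cell.

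Transcription shuts down as spermatid chromatin is compacted, so germ cells make many mRNAs early, hold them in ribonucleoprotein particles and translate them days later. DAZL and BOLL bind 3′ untranslated regions and recruit poly(A)-binding proteins (PABPs), which bridge the poly(A) tail and the cap-binding complex, whereas the PABP-interacting proteins PAIP2 and PAIP2B pull PABPs off the tail. YBX2, also called MSY2, coats and stores germ cell mRNAs, and TARBP2 is a double-stranded RNA-binding partner of Dicer that also binds protamine mRNA. CELF1 binds GU-rich elements and favours tail shortening, and CPEB1 binds the cytoplasmic polyadenylation element.

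Since MLX heterodimers bind the E-box, CACGTG, and its relatives, the promoters of the 10 genes were read for this motif, for the cyclic AMP response element TGACGTCA that CREM binds in spermatids, and for the Y-box, CTGATTGG or its reverse complement, which was added after the expression values had been seen. RefSeq promoter windows (GRCm38.p6, the mm10 assembly) cover 250 bases before to 50 bases after an annotated start, and 7 of the 10 genes had one or more, 9 windows in all. The 4 matches are shown because they are the only places in these windows where a member carries one of the motifs; each line gives 30 bases on the gene's strand, 5′ to 3′, with the motif in capitals.
Boll E-box, chr1:55363745-55363774, minus strand: gagcagagtttgCACGTGggaacttgtctt
Cpeb1 E-box, chr7:81454717-81454746, minus strand: aaaaatagtgccCACGTGtgtgcgcgtccc
Boll Y-box, chr1:55362763-55362792, minus strand: ccggccgccagCCAATCAGcatgcgcccac
Paip2b Y-box, chr6:83831939-83831968, minus strand: tgcttcttcagCCAATCAGagctgggagtc

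The E-box occurred in 2 of the 9 member windows, 1 each of Boll and Cpeb1, and in 7.15% of all 32851 promoter windows. In Boll it spanned bases -9 to -4 before the upstream mRNA start at position 55363753. That start and the E-box lie inside the annotated gene, whose upstream end is at 55363789. In Cpeb1 the E-box spanned bases 25 to 30 after a start at 81454758, which lies inside the gene, whose upstream end is at 81458001. The Y-box occurred in 4.1% of all windows and in 2 of the 9 member windows: in Boll at bases -53 to -46 before the downstream start, at position 55362728, and in Paip2b at bases -216 to -209. The cyclic AMP response element, present in 1.79% of all windows, was in 0 of the 9 windows. These matches are letters in a window and not measured binding. The motif shares and the expression values below were not tested against each other. Of the 2 genes with an E-box, Boll mRNA fell and Cpeb1 mRNA rose, the rise being lost under several alternatives. Both values are given below with their tests.

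The libraries held 16674678 to 19742726 counted reads each. Of 14640 genes with enough counts to test, 3634 (24.8%) were higher and 3015 (20.6%) lower in MLXKO testes, 45.4% in either direction, with edgeR's quasi-likelihood test at a Benjamini-Hochberg adjusted p under 0.05, and 56.2% had groups whose normalised levels did not overlap. The scaling factors from TMM, which aligns the bulk of genes between libraries, were 0.943 to 0.961 in WT and 1.02 to 1.07 in MLXKO, so scaling by library size alone raised the median log2 fold change of all genes from 0.03 to 0.16 and gave 5343 higher and 1268 lower. Mlx itself was counted at 128, 96 and 98 reads in WT and 94, 109 and 102 reads in MLXKO (edgeR log2 fold change -0.18, adjusted p = 0.326). The deletion leaves other Mlx exons in place, so a count over the whole gene does not check the genotypes.

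All 10 members passed the filter on low counts, with 174 to 63826 reads per library. Boll, Ybx2, Tarbp2, Pabpc1 and Pabpc2 were lower in MLXKO testes, Celf1 and Cpeb1 were higher, and Dazl, Paip2 and Paip2b did not pass the test. That is 5 of 10 lower and 2 of 10 higher, against 20.6% and 24.8% of all genes tested. The fold changes were small, from -0.34 to 0.27 on the log2 scale, with a median of -0.16 against 0.03 over all genes tested (-0.02 against 0.16 with library size alone). The groups did not overlap for 7 of the 10 members, the same 7 that passed, against 56.2% of all genes tested. Among the 5 members that fell, the MLXKO library nearest to WT was replicate 1 in 5 of 5. This library stood apart over the whole table too, not only in the members. By chi-square over its degrees of freedom, it differed from MLXKO replicates 2 and 3 by 8.29 each, against 2.74 between replicates 2 and 3.

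The members spanned a wide range of abundance. Levels between genes were compared per length, as RPKM, reads scaled to annotated exon length and library size, and the WT means ran from 1077 ± 26.4 RPKM for Ybx2, through 524 ± 17.8 for Pabpc1 and 383 ± 11.6 for Pabpc2, to 8.33 ± 0.288 for Celf1 and 2.87 ± 0.263 for Cpeb1 (SD, n = 3). The mRNAs of the storage factor YBX2 and of both PABPs therefore stood well above the rest, at ranks 16, 58 and 99 among 17538 symbols with an annotated length. Between them and Celf1 lay Paip2 at 50.0 ± 1.66, Dazl at 45.7 ± 2.99, Tarbp2 at 37.4 ± 0.674, Boll at 25.0 ± 0.304 and Paip2b at 12.7 ± 0.727 RPKM (SD, n = 3). No neighbouring pair in this order overlapped over the 3 WT libraries, although the lowest Paip2 value, 48.6 RPKM, and the highest Dazl value, 48.3 RPKM, all but met. The order depends on the length used, an alternative chosen after seeing the data. With the longest annotated coding transcript in place of all exons, Pabpc1 at 1216 RPKM and Ybx2 at 1214 RPKM had overlapping WT libraries, Paip2 at 113 and Tarbp2 at 112 RPKM did too, and Dazl fell behind them at 58.7 RPKM. Pabpc2 kept its place, and Boll, Paip2b, Celf1 and Cpeb1 stayed at the bottom in the same order.

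**Figure D1:**
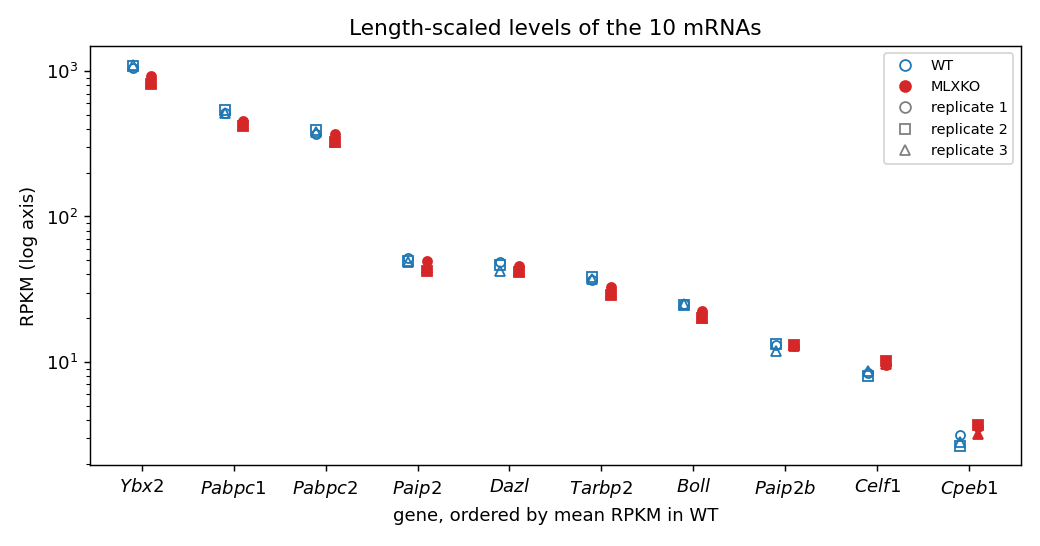
Length-scaled level (RPKM over all annotated exons, log axis) of each of the 10 mRNAs in the 3 WT (open blue) and 3 MLXKO (filled red) libraries, ordered by the WT mean, with marker shape giving the replicate. Ybx2, Pabpc1 and Pabpc2 stand above the other 7 members in every library, and Celf1 and Cpeb1 stand below the other 8.

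Of the DAZ family members, Boll passed the test and Dazl did not, and the 95% intervals of their changes overlapped. Dazl, whose protein is needed for germ cell development from the fetal gonad onward and has Sycp3 and Tex19.1 mRNAs among its known targets, was measured at 185, 177 and 162 CPM (reads scaled to the TMM-corrected library size) in WT replicates 1 to 3 and at 174, 158 and 161 CPM in MLXKO replicates 1 to 3. The groups overlapped, with every MLXKO library inside or just below the WT range. The means were 175 ± 11.4 and 164 ± 8.31 CPM (SD, n = 3), a log2 fold change of -0.09 (95% interval -0.22 to 0.04, edgeR adjusted p = 0.254). The interval takes in a fall as large as that of Pabpc2, given below, but not those of the other members that fell. Dazl lies on chr17:50279393-50293620 in mm10.

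Boll, the ancestral DAZ gene, which acts from meiosis into spermiogenesis, was measured at 88.3, 86.5 and 88.4 CPM in WT and 78.6, 70.6 and 70.3 CPM in MLXKO. Every MLXKO library was below every WT library, and the WT libraries were within 1.02-fold of each other. Boll (chr1:55243566-55363789) therefore fell from 87.7 ± 1.07 to 73.2 ± 4.67 CPM (SD, n = 3), to 0.834 of the WT level (log2 fold change -0.26, SE 0.05, edgeR adjusted p = 0.00268). With library size alone the change was -0.12 with an edgeR adjusted p of 0.055, short of the threshold. Within each library, Boll reads per 100 Dazl reads were 47.8, 48.9 and 54.5 in WT and 45.2, 44.7 and 43.6 in MLXKO, lower in every MLXKO library.

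Ybx2 had the largest fall of the 10. Its protein packages a large part of the stored mRNA of spermatocytes and round spermatids, protamine mRNAs among them. The mRNA was measured at 1978, 2039 and 2076 CPM in WT and at 1735, 1526 and 1555 CPM in MLXKO. The groups were well separated, with the nearest MLXKO library, replicate 1, below the lowest WT library. Ybx2 (chr11:69935805-69941604) fell from 2031 ± 49.8 to 1605 ± 113 CPM (SD, n = 3), to 0.79 of WT (log2 fold change -0.34, SE 0.06, edgeR adjusted p = 0.000974). It passed under every alternative, with log2 fold changes from -0.40 to -0.20.

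The other Y-box genes fell with it. Ybx1, the broadly expressed founding member, went from 1161 ± 19.5 to 977 ± 66.5 CPM (log2 fold change -0.25, edgeR adjusted p = 0.00449), and Ybx3, also called MSY4, which binds protamine mRNAs too, went from 1750 ± 46.1 to 1346 ± 89.1 CPM (log2 fold change -0.38, edgeR adjusted p = 0.000439; SD, n = 3 throughout). Library by library there were 172, 172 and 181 Ybx2 reads per 100 Ybx1 reads in WT and 165, 165 and 163 in MLXKO. About 25.1% of the 50-base stretches of the longest Ybx1 coding transcript also occur in transcripts of other genes, while Ybx2 shares 0% of them, so the Ybx1 count is the less certain of the pair.

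Tarbp2, the double-stranded RNA-binding protein, was measured at 167, 173 and 170 CPM in WT and 149, 132 and 136 CPM in MLXKO. Each MLXKO library was below each WT library. The mean fell from 170 ± 3.07 to 139 ± 9.17 CPM (SD, n = 3), to 0.818 of WT (log2 fold change -0.29, SE 0.05, edgeR adjusted p = 0.00153), and the fall passed under every alternative. A limit is that 49.1% of the 50-base stretches of its longest coding transcript also occur in the predicted gene Gm18584, so reads there may have been placed on either. Tarbp2 lies on chr15:102516077-102523676.

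Among the related double-stranded RNA-binding proteins, Prkra, the PACT partner of Dicer, moved the other way, from 23.1 ± 0.286 to 30.7 ± 1.96 CPM (log2 fold change 0.41, edgeR adjusted p = 0.00105). Stau1, a Staufen RNA transport and decay factor (0.14, edgeR adjusted p = 0.034), and the testis nuclear protein gene Adad1 (-0.18, adjusted p = 0.0207) passed less surely. Stau1 lost its call with DESeq2 (adjusted p = 0.278), with the replicate block in edgeR (0.0607) and without any library but MLXKO replicate 1 (0.0653 to 0.104). Adad1 lost it with library size alone (0.5) and without WT replicates 1 (0.0637) or 2 (0.1) or MLXKO replicates 2 (0.102) or 3 (0.0755). Strbp, the spermatid perinuclear RNA-binding protein (-0.13, adjusted p = 0.051), Adad2 (-0.10, 0.25) and Stau2 (0.26, 0.236) did not pass, and Strbp and Adad2 turned positive with library size alone. Strbp passed with DESeq2 (adjusted p = 0.0243) and without MLXKO replicate 1 (0.00616), and Stau2 without MLXKO replicate 1 (0.0396).

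Pabpc1, the main cytoplasmic PABP and the most counted of the 10 mRNAs, was measured at 3365, 3558 and 3350 CPM in WT and 2980, 2738 and 2767 CPM in MLXKO. The groups did not overlap. Pabpc1 (chr15:36595658-36609581) fell from 3424 ± 116 to 2829 ± 132 CPM (SD, n = 3), to 0.826 of WT (log2 fold change -0.28, SE 0.06, edgeR adjusted p = 0.00238), and passed under every alternative. Some 20.7% of the 50-base stretches of its longest coding transcript also occur in other genes, mainly the predicted gene Gm16580.

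Pabpc2, an intronless, retroposed PABP gene expressed in meiotic and early haploid germ cells, changed less and less surely. Its level was 959, 1019 and 993 CPM in WT and 954, 839 and 839 CPM in MLXKO. MLXKO replicate 1 was almost at the lowest WT library, and the other 2 were far below it. The means were 990 ± 30.0 and 877 ± 66.4 CPM (SD, n = 3), a log2 fold change of -0.17 (SE 0.06, edgeR adjusted p = 0.0336). Within the same-numbered pairs the log2 differences were -0.01, -0.28 and -0.24, and with the replicate number as a block the edgeR adjusted p was 0.0606. With library size alone the change was -0.04 (adjusted p = 0.487), and leaving out any library but MLXKO replicate 1 also ended the call, with adjusted p of 0.0541, 0.13 and 0.093 without WT replicates 1, 2 and 3, and 0.143 and 0.141 without MLXKO replicates 2 and 3. Without MLXKO replicate 1 it was 9.1e-05. The gene is on chromosome 18, from 39773497 to 39776082, and shares 0% of its 50-base stretches with other genes.

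Read against each other in 1 library, which needs no scaling, Pabpc2 reads per 100 Pabpc1 reads numbered 28.5, 28.6 and 29.6 in WT and 32.0, 30.6 and 30.3 in MLXKO. Every MLXKO library was above every WT library, a difference of 0.10 on the log2 scale. Of the other PABP genes, Pabpc6, a further testis-expressed copy, fell from 567 ± 7.44 to 461 ± 52.1 CPM (log2 fold change -0.30, edgeR adjusted p = 0.00541), and Pabpn1, the nuclear PABP, was at -0.14 (adjusted p = 0.0332). The call on Pabpn1 was lost with the replicate block in edgeR (0.0591), with library size alone (log2 fold change -0.00) and without WT replicates 1 (0.123) or 2 (0.1) or MLXKO replicates 2 (0.124) or 3 (0.132). Pabpc4, the inducible PABP, rose from 4.07 ± 0.194 to 6.44 ± 0.533 CPM (0.66, adjusted p = 0.0024), a call lost with the replicate block in DESeq2 (0.0565). Its count is uncertain, since 70.3% of its 50-base stretches occur in other genes. Pabpc1l, the embryonic PABP, was at 5.40 ± 0.462 and 4.38 ± 0.346 CPM (-0.30, adjusted p = 0.104), and Pabpc5 and Pabpc4l had too few counts to test.

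The PABP antagonists did not pass. Paip2 was measured at 184, 176 and 172 CPM in WT and at 176, 149 and 157 CPM in MLXKO. The groups overlapped through MLXKO replicate 1, and the other 2 MLXKO libraries were below all of WT. The means were 177 ± 5.87 and 160 ± 13.7 CPM (SD, n = 3), a log2 fold change of -0.14 (95% interval -0.28 to -0.01) that missed the threshold after adjustment over all genes (edgeR adjusted p = 0.0834). It passed with DESeq2 (adjusted p = 0.0467) and without MLXKO replicate 1 (edgeR adjusted p = 0.00293). Paip2 spans 35598610 to 35617186 on chromosome 18.

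Paip2b, the related inhibitor, was at 83.2, 83.4 and 75.3 CPM in WT and 81.7, 82.6 and 81.7 CPM in MLXKO. All MLXKO libraries lay inside the WT range. The log2 fold change was 0.02 with a 95% interval of -0.09 to 0.14 (edgeR adjusted p = 0.736), which leaves out falls as large as those of Boll, Ybx2, Tarbp2, Pabpc1 and Pabpc2. With library size alone it was 0.16 with an edgeR adjusted p of 0.0288. Paip2b lies on chr6:83806058-83831741.

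Set against its target, Paip2 numbered 5.45, 4.94 and 5.13 reads per 100 Pabpc1 reads in WT and 5.89, 5.45 and 5.66 in MLXKO. The groups met at 1 value and the difference was 0.13 on the log2 scale. Paip2b reads per 100 Paip2 reads were 45.3, 47.4 and 43.8 in WT and 46.5, 55.4 and 52.1 in MLXKO, again overlapping, with a difference of 0.17.

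Celf1, the GU-rich element binding protein, was measured at 70.8, 67.7 and 72.5 CPM in WT and 80.2, 85.2 and 81.8 CPM in MLXKO. Every MLXKO library was above every WT library. It rose from 70.3 ± 2.43 to 82.4 ± 2.60 CPM (SD, n = 3), to 1.17 times WT (log2 fold change 0.23, SE 0.05, edgeR adjusted p = 0.00377). With the replicate block in DESeq2 the adjusted p was 0.075, and all other alternatives kept the call. Celf1 lies on chr2:90940259-91019497.

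Celf2, a relative expressed in many somatic tissues, rose further, from 28.5 ± 2.08 to 40.6 ± 3.70 CPM (log2 fold change 0.51, edgeR adjusted p = 0.000632), and Celf3 fell by 0.21 (adjusted p = 0.0073), or by 0.07 and short of the threshold with library size alone (0.334). Celf4 (-0.12, adjusted p = 0.552), Celf5 (0.17, 0.181) and Celf6 (0.20, 0.158) did not pass, although Celf5 (0.31, 0.0415) and Celf6 (0.34, 0.0369) did with library size alone. For every 100 Celf2 reads there were 238, 260 and 245 Celf1 reads in WT and 219, 208 and 186 in MLXKO, so the balance within the family was lower for Celf1 in every MLXKO library.

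Cpeb1, which directs cytoplasmic polyadenylation of Sycp1 and Sycp3 mRNAs in meiotic prophase, was the least abundant member, with 174 to 289 reads per library. It was measured at 13.2, 11.1 and 11.8 CPM in WT and 14.9, 15.4 and 13.4 CPM in MLXKO. The groups did not overlap, but MLXKO replicate 3 was almost at WT replicate 1. The means were 12.0 ± 1.10 and 14.6 ± 1.01 CPM (SD, n = 3), 1.21 times WT (log2 fold change 0.27, SE 0.10, edgeR adjusted p = 0.0446). The call was lost with DESeq2 (adjusted p = 0.179), with the replicate block in DESeq2 (0.309) and, in edgeR, with DESeq2 size factors (0.0615), with no filter (0.051) and without MLXKO replicate 1 (0.0753), MLXKO replicate 2 (0.134), WT replicate 2 (0.159) or WT replicate 3 (0.112). The log2 fold change stayed between 0.22 and 0.41. Cpeb1 lies on chr7:81347026-81458001.

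Of the more abundant CPEB relatives, Cpeb2 and Cpeb3 fell and Cpeb4 did not pass. Cpeb2 went from 538 ± 13.6 to 459 ± 19.4 CPM (log2 fold change -0.23, edgeR adjusted p = 0.00342) and Cpeb3 from 129 ± 1.31 to 99.7 ± 1.38 CPM (-0.37, adjusted p = 9.0e-05). Cpeb4 was at 107 ± 2.22 and 109 ± 3.24 CPM (0.04, adjusted p = 0.552). With library size alone Cpeb2 was at -0.09 and no longer passed (adjusted p = 0.0844), and Cpeb4 passed as higher at 0.18 (adjusted p = 0.0139).

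**Figure D2:**
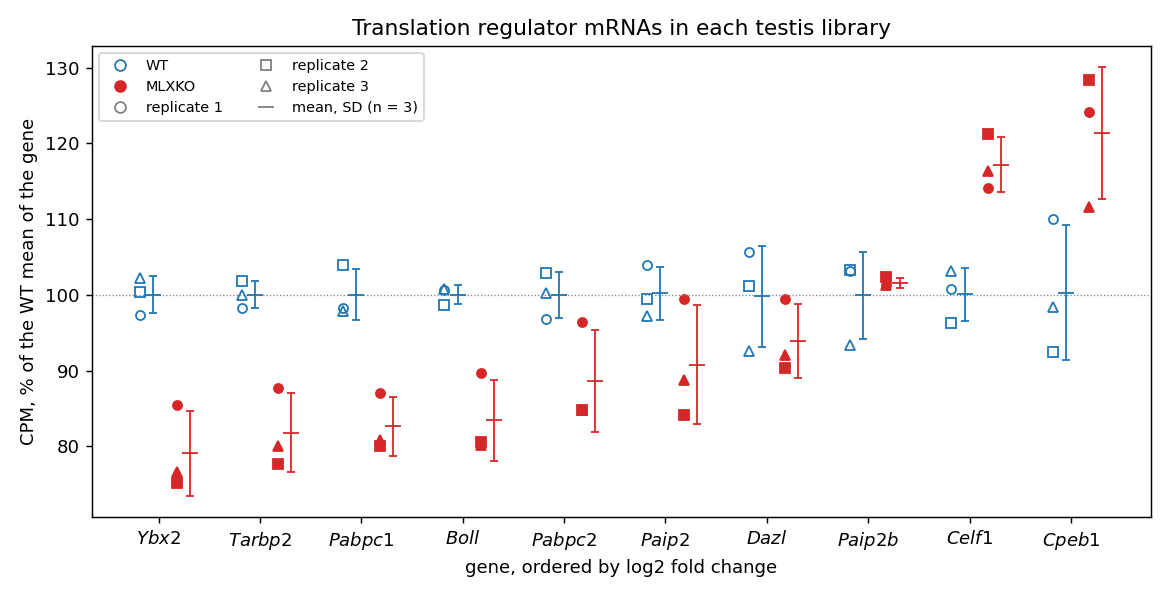
TMM-scaled CPM of each member in each library, as a percentage of the gene's WT mean, for WT (open blue) and MLXKO (filled red), with marker shape giving the replicate and bars the mean and SD (n = 3). Ybx2, Tarbp2, Pabpc1 and Boll are clear of WT on the low side and Celf1 on the high side. The groups of Pabpc2 and Cpeb1 do not overlap but nearly meet. MLXKO replicate 1 is the nearest to WT of the lower genes.

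**Figure D3:**
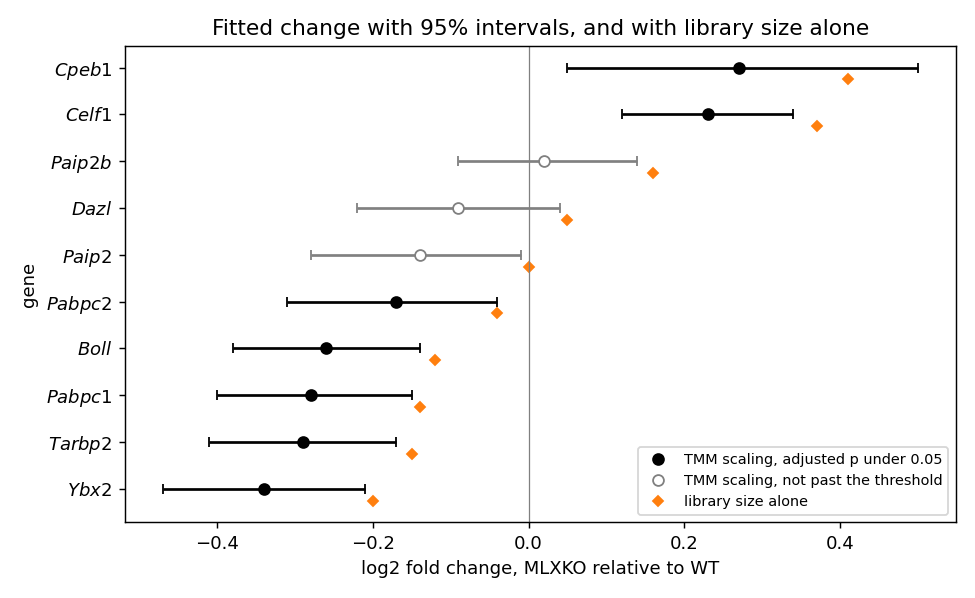
Fitted log2 fold change of each member, MLXKO relative to WT, with TMM scaling (circles with 95% intervals, filled where the edgeR adjusted p is under 0.05) and with library size alone (orange diamonds). Library size alone moves every member up, which takes Dazl from -0.09 to 0.05 and Paip2b from 0.02 to 0.16 and leaves Ybx2 at -0.20.

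The 6 ratios within libraries were tested together. Pabpc2 to Pabpc1, Boll to Dazl (-0.18 on the log2 scale), Ybx2 to Ybx1 (-0.09) and Celf1 to Celf2 (-0.28) each had groups that did not overlap and an exact two-sided permutation p of 0.1, the smallest that 3 against 3 allows (0.15 after Benjamini-Hochberg adjustment over the 6). Paip2 to Pabpc1 and Paip2b to Paip2 overlapped, each with an exact permutation p of 0.2. With the same-numbered libraries kept as pairs, each of the 6 ratios moved 1 way in every pair. An exact sign-flip test then gave p = 0.25 for each, the smallest that 3 pairs allow, so it does not set the 6 apart. The design cannot take a single ratio past 0.05, so these stand as measured differences.

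**Figure D4:**
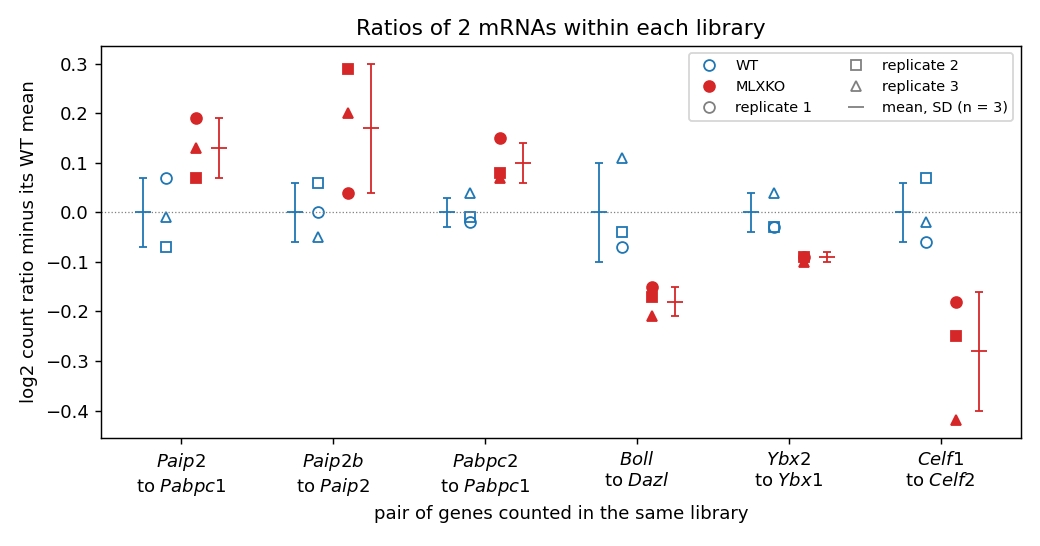
Log2 ratio of the counts of 2 genes in the same library, minus the WT mean of that ratio, for WT (open blue) and MLXKO (filled red), with marker shape giving the replicate and bars the mean and SD (n = 3). The ratios of Boll to Dazl, Ybx2 to Ybx1 and Celf1 to Celf2 are lower in all 3 MLXKO libraries, and that of Pabpc2 to Pabpc1 is higher in all 3.

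The list counts below stand beside 24.8% higher and 20.6% lower over all genes tested, with a median log2 fold change of 0.03. Taken by list, the 20 tested family relatives named above held 4 that were higher and 8 that were lower, with a median log2 fold change of -0.13, or 0.01 with library size alone. In the wider translation machinery that these proteins act on, 3 of 19 cap, poly(A) tail and initiation genes were higher and 5 lower (median -0.09, or 0.05 with library size alone). The cap-complex inhibitors Eif4ebp1 (0.51) and Eif4ebp2 (0.29) rose, and Papolb, the testis cytoplasmic poly(A) polymerase (-0.32), and the initiation scaffold Eif4g3 (-0.27) fell. Of 26 deadenylation and decapping genes, 4 were higher and 4 lower (median -0.02), with rises of the antiproliferative deadenylation cofactor Btg2 (1.47) and the deadenylase subunit Cnot8 (0.32) and falls of Pan3 (-0.26), of the PAN deadenylase, and the decapping scaffold Edc4 (-0.22). In the microRNA machinery, where TARBP2 acts, 1 of 12 genes was higher, Ago1 (0.37), and 1 lower, Tnrc6c (-0.24), with a median of -0.01. Of 25 other germ cell RNA-binding protein genes, 2 were higher and 6 lower (median -0.03), led by Msi1 (0.33) and Tsn (0.17), and by Fxr1 (-0.30) and Dazap1 (-0.24). The 112 tested genes of these lists and the bound mRNAs below held 14 higher and 31 lower, or 36 higher and 14 lower with library size alone. With that scaling the deadenylation list held 11 higher and 0 lower (median 0.12), the microRNA list 3 and 0 (0.12) and the other germ cell RNA-binding list 10 and 2 (0.11). Over all 14640 genes tested, that scaling gave 5343 higher and 1268 lower, with a median of 0.16, above those of these 3 lists. When each library was left out, the deadenylation list ran from 2 to 4 higher and from 2 to 6 lower, the cap and poly(A) tail list from 2 to 3 and from 3 to 6, and the other germ cell RNA-binding list from 1 to 3 and from 3 to 7.

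Of the genes named from these lists, Papolb, Eif4g3, Btg2, Msi1 and Fxr1 passed under every alternative run. Pan3, Edc4, Tnrc6c and Dazap1 did not pass with library size alone (edgeR adjusted p = 0.246, 0.151, 0.119 and 0.101), nor did Eif4ebp1, Eif4ebp2, Cnot8 and Ago1 with the replicate block in DESeq2 (adjusted p = 0.066, 0.15, 0.106 and 0.131). Eif4ebp2 was also lost with DESeq2 (0.054) and, in edgeR, without WT replicate 2 (0.0715) or MLXKO replicates 2 (0.0665) or 3 (0.0572). Pan3 was also lost in edgeR without WT replicate 2 (0.0869) or MLXKO replicate 2 (0.0761). Tsn was the least sure, lost with DESeq2 (0.224), with the replicate block in edgeR (0.0503) and without any library but MLXKO replicate 1 (0.0532 to 0.155).

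The list of mRNAs that these proteins are known to bind or delay lay lower than the regulators. All 10 of its genes had a negative log2 fold change (8 of 10 with library size alone), 7 passed as lower, 0 passed as higher, and the median was -0.51. Prm1, a protamine mRNA stored by YBX2 until spermatid elongation, fell from 2792 ± 65.4 to 1607 ± 180 CPM (log2 fold change -0.80, edgeR adjusted p = 2.2e-05), and the transition protein mRNA Tnp2 fell from 2941 ± 143 to 1669 ± 190 CPM (-0.82, adjusted p = 2.3e-05; SD, n = 3). Both fell further than any of the 10 regulators. Sycp3, a DAZL and CPEB1 target, was at -0.16 (edgeR adjusted p = 0.0473) with overlapping groups. Its call was lost with library size alone (0.711), with upper-quartile scaling (0.0571), with the 1 CPM filter (0.05) and without WT replicates 1 (0.168) or 2 (0.102) or MLXKO replicates 2 (0.164) or 3 (0.201). Sycp1, at -0.13 (0.0837), Tex19.1, at -0.07 (0.659), and Cyp19a1, a CELF1 target, at -0.28 (0.212), did not pass.

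Marker mRNAs of the testicular cell types moved with the groups. The 10 spermatocyte markers summed to 4889 to 4987 CPM in WT and 3995 to 4414 in MLXKO (7 lower, 0 higher, median log2 fold change -0.21). The 10 round spermatid markers summed to 2425 to 2498 CPM in WT and 2023 to 2177 in MLXKO (10 lower, median -0.26, range -0.29 to -0.14), and the 10 elongating spermatid markers to 14657 to 14940 and 10050 to 11831 (10 lower, median -0.48). The falls of Boll, Pabpc1 and Pabpc2 lie inside the range of the round spermatid markers, that of Tarbp2 is level with its lower end and that of Ybx2 is past it. All 5 falls lie inside the spermatocyte range, -0.36 to 0.0. Those of Ybx2, Tarbp2, Pabpc1 and, at its upper end, Boll also lie inside the elongating spermatid range, -0.55 to -0.26. For the sums of all 3 of these lists MLXKO replicate 1 was the nearest to WT, as for the 5 members that fell. The same held for the sums of the spermatogonial list and of every somatic list below, so it was not particular to these lists.

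The 10 spermatogonial markers summed to 157 to 162 CPM in WT and 173 to 182 in MLXKO (2 higher, 1 lower, median 0.02). Somatic markers were higher: Sertoli cell, 9 of 9 (summed 1103 to 1153 CPM in WT, 1639 to 1993 in MLXKO, median 0.54), Leydig cell, 8 of 8 (865 to 885, 1859 to 2446, 1.16), macrophage, 9 of 9 (81.7 to 86.7, 172 to 177, 1.28), peritubular myoid cell, 4 of 5 (72.1 to 87.1, 108 to 119, 0.56), and endothelial cell, 2 of 6 (34.1 to 43.2, 49.5 to 56.7, 0.63). The rises of Celf1 and Cpeb1 were smaller than the median of each of these 5 somatic lists. They lay inside the range of the spermatogonial markers, -0.26 to 0.81, and of the endothelial markers, 0.06 to 2.05. Germ cell and somatic marker genes were detected in both groups and 0 of them had a count of 0 in every library. Their part in the changes of the 10 members was not tested.

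**Figure D5:**
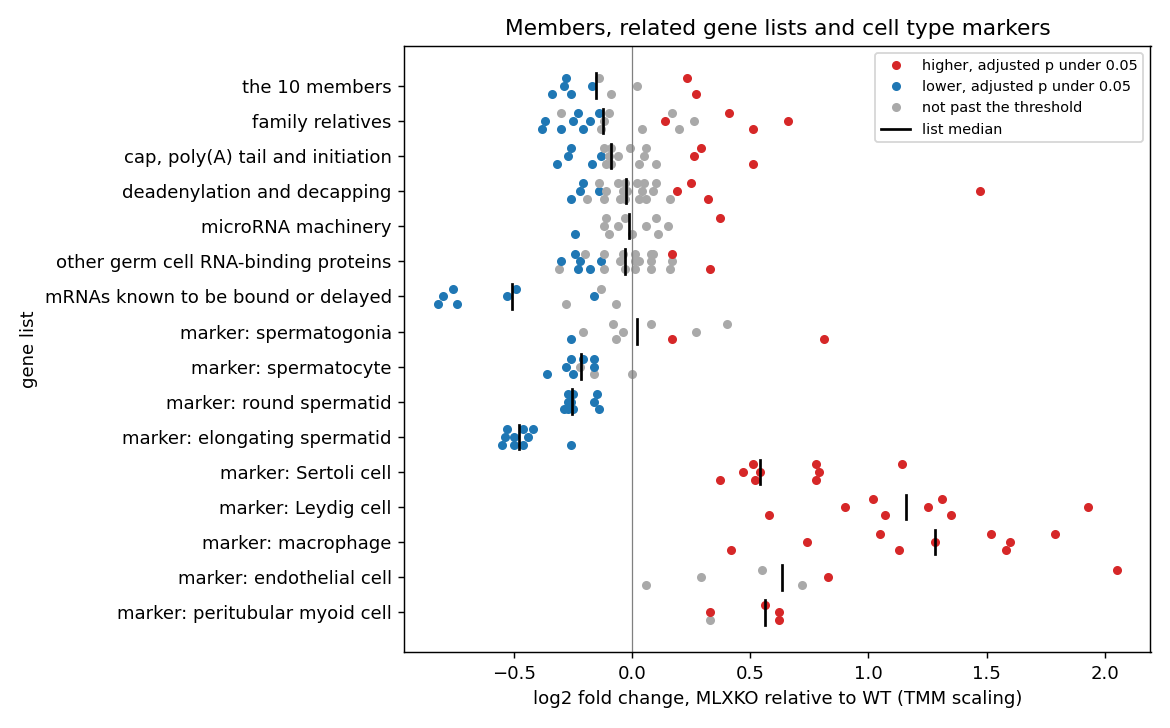
Log2 fold change, MLXKO relative to WT, of every tested gene of the 10 members, the 6 related lists and the 9 marker lists (red higher and blue lower at an edgeR adjusted p under 0.05, grey not past it; vertical offsets only separate points, and the black bar is the list median). The members lie between -0.34 and 0.27, near the spermatocyte and round spermatid markers on the lower side. On the upper side they lie below the median of each somatic list, although the endothelial markers reach down to 0.06.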

How the data were processed

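Total RNA from whole testes was sequenced as paired 50-base reads. The authors' deposited counts are whole reads per gene symbol and library. The submitters' processing notes name bcl2fastq 1.8.4, TopHat, Bowtie2, DESeq2, bedtools and mm10; the counting tool and annotation are not given in the sources used here. The same table holds the authors' comparison of MLXKO with WT (mean signal, fold changes, errors, p-values), which was not used, and the ChIP-seq samples were not analysed here. Of 17933 rows, 2 repeated rows were used once.

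Counts were tested with edgeR 4.0.16 (limma 3.58.1, R 4.3.3): filterByExpr with a minimum count of 10, TMM, genotype as the only term, glmQLFit and glmQLFTest, and Benjamini-Hochberg adjustment over 14640 genes at 0.05. Intervals are 95%. The pipeline was tested on simulated data. Alternatives were DESeq2 1.42.0, DESeq2 size factors, library size alone, upper-quartile scaling, no filter, at least 1 CPM in 3 libraries, the replicate block, and each library left out. RPKM used the union of GENCODE M21 exons; cell type markers and related lists were counted, with no set test. The 10 members and all lists were chosen with earlier results of these data known. Named genes are the members, the family relatives and, per other list, up to 2 rises and 2 falls past the threshold in the same direction in every pair; 4 more genes of the bound list were named after their values were seen, and 1 further gene is not reported here.

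The sample titles call the libraries biological paired replicates, numbered 1 to 3 in each genotype, and the methods describe littermates. Deviations of same-numbered libraries from their group means correlated across genes at 0.145, 0.0363 and 0.121, and those of differently numbered ones at 0.033 or less. Within groups, library pairs differed 2.74 to 8.29 times as much as counting error gives (chi-square over its degrees of freedom), so none was counted as a repeat. Groups of 3 limit the precision, and counts cover molecules after amplification, without molecular identifiers.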

Additional observations from a re-analysis of the deposited data

How the results depend on the processing

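The counts of members past the threshold were 2 higher and 5 lower. The higher count was 1 with DESeq2 size factors, with no filter and with DESeq2, and 0 with DESeq2 and the replicate block (Celf1 adjusted p = 0.075, Cpeb1 0.309), and it ran from 1 to 2 when each library was left out. The lower count was 3 with library size alone, where Boll and Pabpc2 did not pass; the cause was not tested, beyond the shift of all genes by this scaling. With the replicate block in edgeR, which uses the paired numbering, 2 members were higher and 4 lower; Pabpc2 was lost and no other member's call changed in edgeR. Ybx2, Tarbp2 and Pabpc1 passed under every alternative run. The genes of the 6 related lists, 14 higher and 31 lower, became 36 higher and 14 lower with library size alone, 9 higher with DESeq2 and 5 higher with DESeq2 and the replicate block, and the higher count ran from 9 to 15 when each library was left out, the 9 without MLXKO replicate 3. Over all 14640 genes tested, 3634 higher and 3015 lower became 5343 and 1268 with library size alone. With library size alone Dazl was at 0.05 and, among genes that had not passed, Celf4 at 0.02, Strbp at 0.01, Adad2 at 0.04, Sycp1 at 0.01 and Tex19.1 at 0.07. Paip2b was at -0.00 with DESeq2 size factors, -0.01 with DESeq2 and -0.01 with DESeq2 and the block, and between -0.03 and 0.05 when each library was left out, against 0.02. When each library was left out, Celf4 ran from -0.20 to 0.04 and Tex19.1 from -0.15 to 0.02.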
